A study of Mus musculus with 15 samples.

Results

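The transcripts of 10 genes of the MHC class I pathway were followed in microglia after a single dose of a brain-penetrant TREM2 antibody. They were the heavy chains H2-K1, H2-D1, H2-Q6, H2-Q7 and H2-T23, the light chain B2m, the peptide transporter subunits Tap1 and Tap2, the loading chaperone Tapbp (tapasin) and the class I transactivator Nlrc5. These are 10 of the 32372 genes in the count table, and each had enough counts to be tested. They were listed by name, with earlier results of the same libraries known, and H2-Q6 and H2-Q7 had been named for their large difference at day 7. These 2 genes were therefore chosen by their summed counts at day 7 against ATV:RSV, and every day 7 value of H2-Q6 and H2-Q7 is given here as a description with no test.

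MHC class I molecules show peptides from inside the cell to CD8+ T cells. A heavy chain pairs with B2m in the endoplasmic reticulum, where TAP (Tap1 with Tap2) brings in peptides cut by the proteasome and tapasin holds the empty heavy chain next to TAP. Interferons raise most genes of the pathway, and Nlrc5 acts at the promoters of the class I heavy chains, B2m and Tap1. Microglia, the resident macrophages of the brain, keep class I low at rest.

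Microglia were isolated with CD45 beads from cortex and hippocampus of 15 male mice aged 3.5 months, all carrying a human transferrin receptor knock-in (hTfR KI) on a C57BL/6J background. Each mouse received 1 dose of 10 mg/kg. ATV:4D9 joins a TREM2 antibody to an Fc that binds the human transferrin receptor, and in ATV:RSV that Fc carries a control antibody instead. The control group was taken 1 day after dosing, and the 4 groups given ATV:4D9 were taken 1, 7, 14 and 28 days after dosing, all with 3 mice. Every one of the 3 batches held 1 mouse from each of the 5 groups, and the 3 values given for a group are those of batches 1, 2 and 3 in that order. No ATV:RSV mouse was sampled after day 1, so the same 3 control mice entered every comparison with ATV:RSV, and day and treatment cannot be told apart at the later days.

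The table held 102043 cells, 5667 to 7596 a mouse, with a median of 4694 to 6117 UMIs (unique molecules) per cell in 4 groups and 8202 to 8996 in ATV:4D9 day 1. At least 3 of 8 microglial markers were detected in 99.7% to 100% of the cells of each mouse. In counts per 1000000 UMIs (CPM), the summed level of those markers was lower in ATV:4D9 day 1 (13880 to 15420 CPM) than in ATV:RSV (19430 to 20920). T cell markers summed to at most 1.01 CPM in every mouse. Monocyte markers summed to 27.8 to 30.9 CPM at day 1 against 5.94 to 16.8 in the other groups, through Plac8 (at least 11.8 CPM, against at most 2.22 in ATV:RSV) and Ms4a4c (at least 13.3, against at most 4.2), whereas Ccr2 was lower than in ATV:RSV (1.28 to 2.00, against 3.28 to 8.40), and at most 1 cell a mouse had 3 of these markers. Cells with at least 3 markers of border-associated macrophages made up 0.674% to 0.934% of the unthinned day 1 libraries and 0.152% to 0.335% of the others, and the summed level of those markers overlapped between them (16.8 to 24.3 CPM at day 1, 10.8 to 19.6 elsewhere). Neutrophil markers summed to 116 CPM in the day 7 mouse of batch 3, where 1 cell had 3 of them, and to at most 9.03 CPM in the other 14 mice. Cells with a Mki67 or Top2a UMI, genes of dividing cells, made up 19.6% to 27.4% of ATV:4D9 day 1 and at most 0.684% elsewhere. The median mitochondrial share of a cell's UMIs was 3.11% to 3.38% in the ATV:RSV mice, 3.96% to 4.50% at day 1 and 3.49% to 4.04% at day 7, so that every mouse of these days was above every control mouse, and 3.13% to 3.64% at day 14 and day 28. The part of these differences in mitochondrial share and markers in the results was not tested. Of the cell barcodes, 1283 occurred in more than 1 library. The ATV:RSV mouse of batch 1 stood apart from the other 2 control mice, with the highest level of 6 of the 10 transcripts and the most cells with at least 3 of 14 interferon genes (8.01%, against 3.22% and 5.23%). Results that rest on it are given with and without this mouse.

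Values of the 10 transcripts are CPM of the summed cells of each mouse, scaled by the trimmed mean of M values, with SD over n = 3 mice. Log2 fold changes with SE and adjusted p are from limma-voom over 14260 genes, with Benjamini-Hochberg adjustment and a threshold of 0.05. In sums over cells, more cells with a transcript and more transcript per cell cannot be told apart. Values per cell are given further on for H2-K1, H2-D1 and B2m and for H2-Q6 with H2-Q7.

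In the mm10 annotation 8 of the 10 genes lie on chromosome 17. Tapbp (33915899 to 33929292, plus strand), H2-K1 (33996017 to 34000347, minus), Tap1 (34187553 to 34197225, plus) and Tap2 (34203527 to 34216321, plus) come first. H2-D1 (35262730 to 35267499, plus), H2-Q6 (35424850 to 35430055, plus), H2-Q7 (35439155 to 35443773, plus) and H2-T23 (36029773 to 36032855, minus) follow. B2m lies on chromosome 2 (122147686 to 122153083, plus) and Nlrc5 on chromosome 8 (94434356 to 94527272, plus). Heavy chain genes resemble each other, so reads could be shared. Over windows of 91 bases, the longest H2-Q6 and H2-Q7 transcripts had 175 windows in common, and none of these lay among the last 500 windows at the 3′ end, from which the libraries were made. Within those 500 windows H2-Q7 shared 6 with H2-Q5, H2-Q6 shared 43 and H2-T23 77 with other genes, and H2-K1 and H2-D1 shared none. The split of UMIs between H2-Q6 and H2-Q7 is still uncertain, and their sum is given as well.

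RefSeq promoters (GRCm38.p6) were found for 8 of the 10 genes, without Tap2 and Nlrc5. The stretches that follow are those of the heavy chains and the light chain on which the results turn, and those of the 4 heavy chains are lined up on their first capitals. Capitals mark GGGATTCCC (an NF-kB palindrome), TTTCACTT (an interferon-response-like sequence), TGACG (the core of the X2 box) and CCAAT, which reads ATTGG on the other strand, each searched on both strands of the 250 bases before the start. In B2m they mark GAAANNGAAA, an interferon-stimulated response element. The start is that of RefSeq and can differ from the gene spans given above. The H2-D1 stretch lies inside the span of that gene, and the H2-K1 stretch reaches into its own. All are read 5′ to 3′ on the gene's strand, 120 bases each.
H2-K1, chr17:34000342-34000461, minus: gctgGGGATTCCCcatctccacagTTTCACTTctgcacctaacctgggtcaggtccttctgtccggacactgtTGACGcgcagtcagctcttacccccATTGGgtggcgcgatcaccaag
H2-D1, chr17:35262920-35263039, plus: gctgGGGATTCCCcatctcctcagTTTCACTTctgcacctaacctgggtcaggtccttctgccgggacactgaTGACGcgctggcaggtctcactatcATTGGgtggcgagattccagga
H2-Q6, chr17:35424674-35424793, plus: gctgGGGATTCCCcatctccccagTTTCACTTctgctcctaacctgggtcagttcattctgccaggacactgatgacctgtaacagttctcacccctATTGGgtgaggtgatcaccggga
H2-Q7, chr17:35439019-35439138, plus: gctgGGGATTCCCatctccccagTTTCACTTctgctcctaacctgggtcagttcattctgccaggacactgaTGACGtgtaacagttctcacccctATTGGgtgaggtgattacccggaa
B2m, chr2:122147544-122147663, plus: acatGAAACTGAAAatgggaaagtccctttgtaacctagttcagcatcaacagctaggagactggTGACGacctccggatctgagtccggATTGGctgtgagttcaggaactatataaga

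GGGATTCCC and TTTCACTT stood in H2-K1, H2-D1, H2-Q6 and H2-Q7 and in neither B2m, H2-T23, Tap1 nor Tapbp. Of 32851 promoters, 0.301% held GGGATTCCC and 1.36% held TTTCACTT. GAAANNGAAA stood in B2m and H2-T23 and in 2.98% of all promoters. TGACG (17.8% of all promoters) was missing from the windows of H2-Q6, H2-T23 and Tapbp, and CCAAT (33.9%) stood in all 8. Without gaps, the H2-D1 and H2-K1 stretches were identical at 85% of positions, those of H2-D1 and H2-Q6 at 70%, those of H2-K1 and H2-Q6 at 66.7% and that of H2-Q7 with the other 3 at 33.3% to 35.8%. The H2-Q7 stretch lacks the base c that follows GGGATTCCC in the other 3. From there on its letters were compared out of step, so its low values do not measure likeness. Read past the missing base, the printed H2-Q6 and H2-Q7 letters are nearly the same. These matches describe the letters in the windows and say nothing of binding.

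One day after ATV:4D9 all 10 transcripts were higher than after ATV:RSV, by 0.19 (Tap2) to 3.01 (Nlrc5) on the log2 scale. With scaling to the library size alone, H2-T23 (-0.01) and Tap2 (-0.05) were not. At day 7 H2-K1, H2-D1, B2m, Tap1 and Nlrc5 were still higher, and H2-Q6 and H2-Q7 had their highest means of the 5 groups. At day 14 and day 28 none of the 10 passed the test. Over the 8 transcripts without H2-Q6 and H2-Q7 the median log2 fold changes were 0.64, 0.44, 0.09 and 0.06 at day 1, 7, 14 and 28, beside medians of -0.05, -0.00, -0.00 and 0.00 over all genes tested. At day 1 the change was broad, and 34.7% of all genes were called higher and 34.6% lower, so that 10 of 10 higher must be read against that share. The 10 include H2-Q6 and H2-Q7, which were named for a difference from the same ATV:RSV mice, and that share does not correct for this choice. The other 8 were also all called higher.

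**Figure D1:**
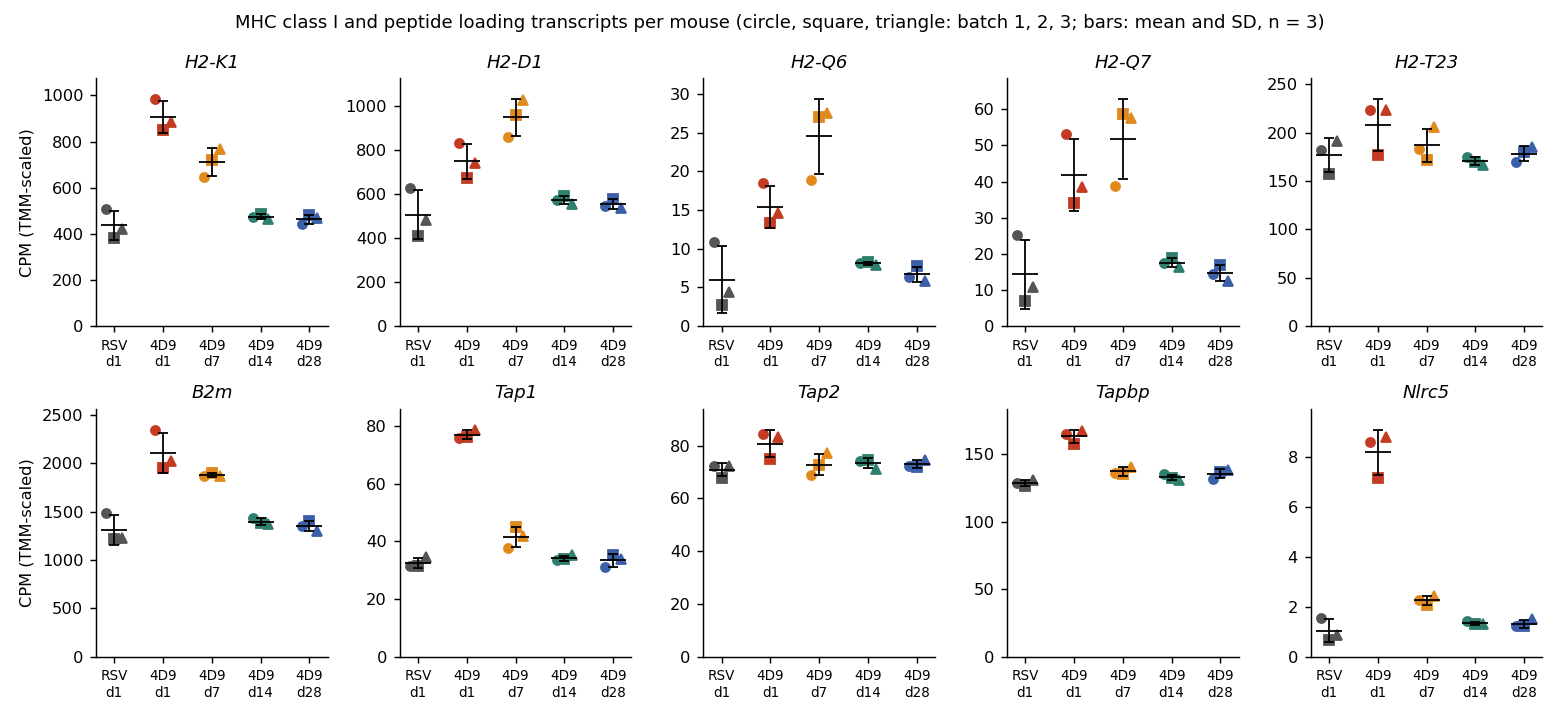
CPM (TMM-scaled) of the 10 transcripts in each mouse, by group. Circles, squares and triangles are the mice of batches 1, 2 and 3, and bars give the mean and SD (n = 3). H2-K1, Tap1, Tapbp and Nlrc5 are highest at ATV:4D9 day 1, whereas H2-D1, H2-Q6 and H2-Q7 have their highest mean at day 7, and the day 14 and day 28 mice lie near or within the range of the ATV:RSV mice.

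Among the classical heavy chains, which present peptides to CD8+ T cells, H2-K1 stood at 507, 383 and 420 CPM in the 3 ATV:RSV mice and at 985, 851 and 884 CPM in ATV:4D9 day 1. The day 7 mice had 648, 718 and 769 CPM. The day 14 mice had 474, 487 and 462 CPM and the day 28 mice 442, 479 and 469 CPM. The ranges of day 1 and day 7 overlapped neither each other nor those of the other groups. H2-K1 rose by 1.06 ± 0.09 (log2, SE) at day 1 (adjusted p = 2.21e-08) and was still 0.71 ± 0.09 above ATV:RSV at day 7 (adjusted p = 9.86e-05). It was higher in 3 of 3 batches at both days.

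H2-D1 had 626, 409 and 483 CPM in ATV:RSV and 833, 675 and 741 CPM at day 1. At day 7 it reached 859, 961 and 1027 CPM, above every mouse of the other groups. The day 14 (573, 590 and 554 CPM) and day 28 mice (548, 579 and 535 CPM) lay inside the range of the control mice. H2-D1 rose by 0.58 ± 0.12 at day 1 (adjusted p = 0.000318) and by 0.93 ± 0.12 at day 7 (adjusted p = 0.000118).

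Between day 1 and day 7 the 2 classical heavy chains went opposite ways. H2-K1 fell by 0.35 ± 0.09 on the log2 scale (adjusted p = 0.00212, lower in 3 of 3 batches) and H2-D1 rose by 0.34 ± 0.12 (adjusted p = 0.0158, higher in 3 of 3 batches), where 33.0% of all genes were called higher and 33.9% lower. The rise of H2-D1 was 0.04 in batch 1, against 0.51 and 0.47 in batches 2 and 3. Its call was lost without the day 1 mouse of batch 2 (0.26, adjusted p = 0.083) and without the day 7 mouse of batch 3 (0.28, adjusted p = 0.0752).

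The ratio of H2-K1 to H2-D1 within a mouse was 0.809 to 0.936 in ATV:RSV. It was 1.18 to 1.26 at day 1 and 0.747 to 0.755 at day 7, then 0.825 to 0.834 at day 14 and 0.806 to 0.877 at day 28. H2-K1 exceeded H2-D1 in all 3 day 1 mice and in none of the other 12. The summed CPM of H2-K1 and H2-D1 was nearly equal at day 1 (1656 ± 149) and day 7 (1661 ± 145), against 943 ± 174 in ATV:RSV, so the composition differed between these days where the sum did not separate them.

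**Figure D2:**
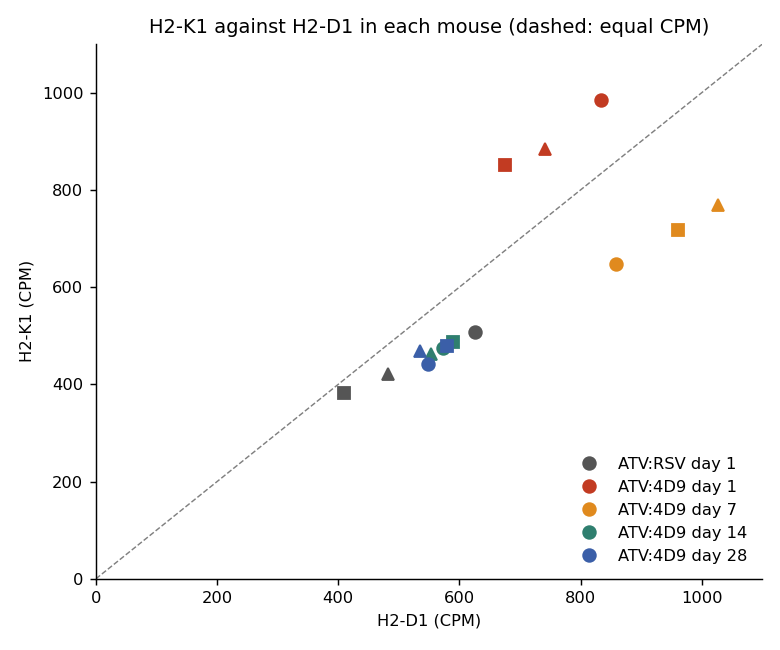
H2-K1 against H2-D1 in CPM, 1 point a mouse (circle, square and triangle for batches 1, 2 and 3), with the dashed line at equal CPM. The 3 ATV:4D9 day 1 mice lie above the line and the other 12 below it, with the day 7 mice farthest to the right.

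H2-Q6 and H2-Q7 encode class Ib heavy chains of the Qa-2 family. H2-Q6 had 10.9, 2.65 and 4.34 CPM in ATV:RSV and 18.5, 13.3 and 14.5 CPM at day 1. At day 7 it had 18.9, 27.0 and 27.5 CPM, then 8.07, 8.31 and 7.86 CPM at day 14 and 6.36, 7.74 and 5.83 CPM at day 28. The control mouse of batch 1 was above every day 14 and day 28 mouse, and the other 2 control mice were below all of them.

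H2-Q7 followed with 25.2, 6.80 and 10.7 CPM in ATV:RSV, 53.2, 34.1 and 38.4 CPM at day 1 and 38.9, 58.7 and 57.7 CPM at day 7. It had 17.4, 18.7 and 16.2 CPM at day 14 and 14.4, 17.0 and 12.5 CPM at day 28. Summed, the pair stood at 20.2 ± 14.0 CPM in ATV:RSV, 57.3 ± 12.7 at day 1, 76.2 ± 16.0 at day 7, 25.5 ± 1.45 at day 14 and 21.3 ± 3.21 at day 28. The spread among the control mice was therefore many times that of the day 14 mice.

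At day 1 H2-Q6 was 1.56 ± 0.31 above ATV:RSV (adjusted p = 0.000357) and H2-Q7 1.71 ± 0.31 (adjusted p = 0.000145). Without the control mouse of batch 1 these values were 2.17 and 2.27. They rest on the same ATV:RSV mice as the day 7 difference for which the pair had been named. As a description, the day 7 differences were 2.23 for H2-Q6 and 2.02 for H2-Q7, and 2.83 and 2.57 without that mouse. By batch, the day 7 difference was 0.80, 3.35 and 2.66 for H2-Q6 and 0.63, 3.11 and 2.43 for H2-Q7, and was thus smallest in batch 1 for both. From day 1 to day 7 H2-Q6 differed by 0.67 and H2-Q7 by 0.31. From day 7 to day 14 they differed by -1.59 and -1.55, also without a test.

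H2-T23, the class Ib heavy chain of Qa-1 that is seen by NKG2A, moved little. It had 183, 157 and 191 CPM in ATV:RSV, 224, 177 and 223 CPM at day 1 and 184, 171 and 206 CPM at day 7. The day 14 (175, 169 and 167 CPM) and day 28 mice (170, 180 and 186 CPM) lay in the control range, and the day 1 range overlapped it too. H2-T23 was called higher at day 1 (0.23 ± 0.09, adjusted p = 0.0356, higher in 3 of 3 batches), yet was -0.01 with scaling to the library size alone. That call was lost with cells thinned to the same depth (adjusted p = 0.0988), with only the 6 mice compared (0.0732) and on leaving out any of 3 mice (0.126 to 0.186).

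B2m, the light chain shared by all class I molecules, had 1488, 1212 and 1227 CPM in ATV:RSV, 2346, 1953 and 2024 CPM at day 1 and 1869, 1903 and 1867 CPM at day 7. At day 14 it had 1436, 1379 and 1376 CPM and at day 28 1355, 1401 and 1301 CPM. Every day 1 mouse was above every day 7 mouse, and both groups were above all others. B2m rose by 0.69 ± 0.07 at day 1 (adjusted p = 5.36e-07) and 0.53 ± 0.07 at day 7 (adjusted p = 0.000373). The change from day 1 to day 7 was -0.16 ± 0.07 (adjusted p = 0.0662). It passed with batch as a block (adjusted p = 0.0265), with DESeq2 (0.0305) or its size factors (0.0417), without the filter on low counts (0.028), without cells with a Mki67 or Top2a UMI (0.0106), and without the control mouse of batch 1 (0.0224) or the day 1 mouse of batch 2 (0.0239).

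The ratio of B2m to the sum of the 5 heavy chains was 1.16 ± 0.09 in ATV:RSV, 1.10 ± 0.03 at day 1 and 0.982 ± 0.0872 at day 7. The group ranges overlapped between ATV:RSV and day 1, whereas all 3 day 7 mice (0.895 to 1.07) were below the lowest control mouse (1.10). This ratio includes H2-Q6 and H2-Q7 and is a description.

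Tap1, the transporter subunit that pumps peptides together with Tap2, had 31.6, 31.4 and 34.5 CPM in ATV:RSV and 76.1, 76.2 and 78.8 CPM at day 1. It had 37.8, 44.9 and 42.0 CPM at day 7, 33.7, 33.8 and 35.2 CPM at day 14 and 31.1, 35.2 and 33.9 CPM at day 28. Day 1 and day 7 were each clear of the controls. Tap1 rose by 1.25 ± 0.06 at day 1 (adjusted p = 6.40e-11) and by 0.35 ± 0.07 at day 7 (adjusted p = 0.0044), and fell by 0.89 ± 0.06 between these days (adjusted p = 3.06e-09).

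Tap2 had 72.4, 67.9 and 72.4 CPM in ATV:RSV, 84.4, 74.8 and 83.2 CPM at day 1 and 68.9, 72.5 and 77.1 CPM at day 7. At day 14 it had 74.1, 74.7 and 71.3 CPM and at day 28 72.3, 72.0 and 74.6 CPM. All day 1 mice were above the control mice, whereas the later groups overlapped them. Tap2 rose by 0.19 ± 0.05 at day 1 (adjusted p = 0.0065), but the value was -0.05 with scaling to the library size alone, and at day 7 the difference was 0.04 (adjusted p = 0.786). At day 1 the fold changes of the 2 subunits were 2.37 for Tap1 and 1.14 for Tap2, and the difference between them was not tested.

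Tapbp, which bridges the empty heavy chain to TAP, had 129, 126 and 131 CPM in ATV:RSV, 165, 158 and 167 CPM at day 1 and 136, 135 and 141 CPM at day 7. The day 14 mice had 135, 132 and 131 CPM and the day 28 mice 132, 137 and 138 CPM. Tapbp rose by 0.34 ± 0.04 at day 1 (adjusted p = 1.28e-06). At day 7 all 3 mice were above the control mice, with a difference of 0.09 ± 0.04 that did not pass (adjusted p = 0.26) and was -0.00 with scaling to the library size alone.

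Nlrc5, the transactivator of class I genes, had 1.55, 0.675 and 0.883 CPM in ATV:RSV and 8.62, 7.17 and 8.81 CPM at day 1. It had 2.29, 2.08 and 2.44 CPM at day 7, 1.42, 1.3 and 1.3 CPM at day 14 and 1.24, 1.22 and 1.51 CPM at day 28. The day 1 and day 7 ranges lay apart from each other and above all others. Nlrc5 rose by 3.01 ± 0.21 at day 1 (adjusted p = 2.85e-09), an 8.08-fold difference, and was 1.19 ± 0.24 above ATV:RSV at day 7 (adjusted p = 0.00899). The day 7 call was lost without the control mouse of batch 2 (0.93, adjusted p = 0.0618) and without the day 7 mouse of batch 3 (1.13, adjusted p = 0.0505). The counts behind these values were small, 28 to 76 UMIs in a control mouse, 412 to 549 at day 1 and 67 to 123 at day 7.

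**Figure D3:**
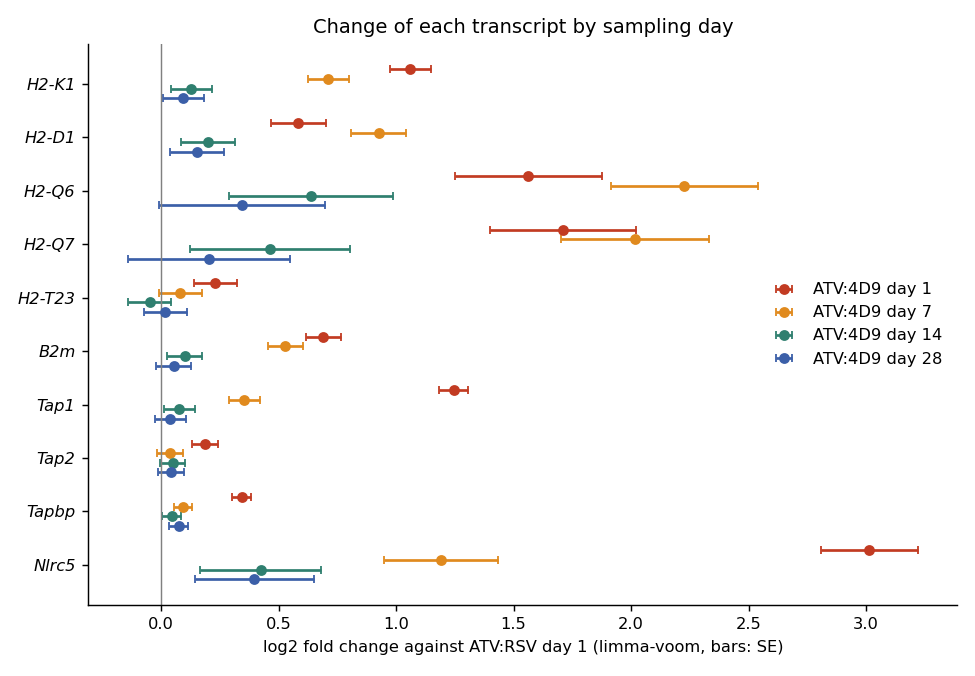
Log2 fold change of each transcript against ATV:RSV day 1 (limma-voom, bars are SE), by sampling day of ATV:4D9. Nlrc5 is farthest from 0 at day 1 (3.01), H2-Q6 and H2-Q7 at day 7 (2.23 and 2.02, shown as a description), and the day 14 and day 28 points lie between -0.05 and 0.64 with the widest bars for H2-Q6, H2-Q7 and Nlrc5.

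At day 7, 5 of the 8 transcripts that could be tested were called higher and none lower, and 6 of 8 had an unadjusted p under 0.05. Over all genes 2.99% were called higher at day 7 (568 genes in both directions, and 1014 with batch as a block). Without the control mouse of batch 1 all 5 calls were kept, at 0.33 for Tap1 to 1.55 for Nlrc5, with adjusted p from 8.82e-06 to 0.0225. That mouse had the highest control level of H2-K1, H2-D1, B2m and Nlrc5, so leaving it out could only raise these differences. Without the control mouse of batch 2, which had the lowest level of these transcripts, the call for Nlrc5 was lost (0.93, adjusted p = 0.0618). The day 7 mouse of batch 3, which stood apart in neutrophil markers, had the highest H2-K1 and H2-D1 of that day. Without it 4 of the 5 calls held, at 0.65 for H2-K1, 0.86 for H2-D1, 0.53 for B2m and 0.34 for Tap1 (adjusted p from 0.00095 to 0.0302), and that of Nlrc5 was lost.

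From day 1 to day 7, 5 of 8 were called lower, namely H2-K1, Tap1, Tap2, Tapbp and Nlrc5, and H2-D1 alone was called higher, beside 33.9% lower and 33.0% higher over all genes. Tap1 (-0.89), Tapbp (-0.25 ± 0.04, adjusted p = 4.13e-05) and Nlrc5 (-1.82 ± 0.16, adjusted p = 6.51e-08) were lower in 3 of 3 batches. The fall of Tap2 (-0.15 ± 0.05, adjusted p = 0.0266) had overlapping ranges and was -0.00 with scaling to the library size alone. That call was also lost with only the 6 mice compared (adjusted p = 0.0957) and on leaving out any of 4 mice, those of batches 1 and 3 at day 1 and of batches 1 and 2 at day 7 (0.0634 to 0.101).

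From day 7 to day 14 H2-K1 fell by 0.58 ± 0.09 (adjusted p = 0.00491), H2-D1 fell by 0.73 ± 0.12 (adjusted p = 0.00697) and B2m fell by 0.43 ± 0.07 (adjusted p = 0.0112), each in 3 of 3 batches. These were 3 of the 8 tested, where 0.856% of all genes were called lower. Tap1 (-0.28, adjusted p = 0.0627) and Nlrc5 (-0.77, adjusted p = 0.198) did not pass, and both did with batch as a block (adjusted p = 0.0192 and 0.0429), which makes 5 of 8. The call for B2m was lost on leaving out any of 4 mice, those of batches 2 and 3 at day 7 and day 14, with adjusted p of 0.0509 to 0.0777.

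At day 14 none of the 10 was called by limma-voom, edgeR or DESeq2, and none had an unadjusted p under 0.05, where 0.386% of all genes were called higher. The differences ran from -0.05 (H2-T23) to 0.64 (H2-Q6, SE 0.35) and were above 0 for 9 of 10. The batch 1 values of H2-K1, H2-D1, B2m, H2-Q6, H2-Q7 and Nlrc5 were below their control mouse and the batch 2 and 3 values above theirs. Without the control mouse of batch 1 the day 14 differences were 1.24 for H2-Q6 (adjusted p = 0.119) and 1.02 for H2-Q7 (adjusted p = 0.278).

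At day 28 none of the 10 was called by any of the 3 tools either. By limma-voom none had an unadjusted p under 0.05, and 0% of all genes were called in either direction (14 genes with DESeq2). The differences ran from 0.02 (H2-T23) to 0.40 (Nlrc5, SE 0.25). Those of H2-Q6 (0.34) and H2-Q7 (0.20) turned to -0.10 and -0.21 without the control mouse of batch 2, and were 0.95 and 0.76 without that of batch 1. From day 14 to day 28 none of the 10 was called by the 3 tools, and by limma-voom none had an unadjusted p under 0.05, again with 0% of all genes. DESeq2 gave 713 adjusted p-values there and called 70 genes, and a gene without such a value could not be called. The differences from day 14 to day 28 were -0.29 (H2-Q6) to 0.07 (H2-T23). With SEs of up to 0.35, a return of H2-Q6 and H2-Q7 to the control level cannot be told from a remaining difference at these days.

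Per cell, each cell was thinned to 3385 UMIs (the 10th percentile of depth), so that the deeper day 1 libraries could be compared, and 10204 shallower cells were left out (3.93% to 5.79% of each day 1 mouse and 6.76% to 17.8% of the others). After thinning, the summed UMIs of H2-K1, H2-D1 and B2m had a median per cell of 7 to 8 in the ATV:RSV mice, 10 to 11 at day 1 and at day 7, 8 at day 14 and 7 to 8 at day 28. The 10th percentile was 3 to 4 in ATV:RSV and 5 to 6 at day 1 and 5 at day 7. The 90th percentile was 12 to 15 in ATV:RSV, 17 to 20 at day 1 and 19 to 21 at day 7. The low, middle and high ends of the distribution over cells were thus each above those of the ATV:RSV mice at both days. Unthinned, H2-K1 averaged 2.86 UMIs per cell in ATV:RSV, 7.60 at day 1 and 4.33 at day 7, and H2-D1 3.33, 6.29 and 5.77.

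The share of cells with a UMI of H2-Q6 or H2-Q7 after thinning was 7.88%, 2.67% and 4.09% in ATV:RSV, 14.4%, 10.9% and 11.2% at day 1 and 14.6%, 20.2% and 19.7% at day 7. It was 7.04% to 7.71% at day 14 and 5.06% to 7.20% at day 28. Unthinned, these shares were 4.68% to 12.8%, 22.5% to 29.6%, 21.4% to 29.7%, 12.3% to 13.3% and 9.18% to 12.2%. The pair had a mean of 0.0634 UMIs per thinned cell in ATV:RSV and 0.252 at day 7. With so few UMIs the share cannot separate more cells with the transcript from more transcript per cell. The part of free RNA in these shares was not tested.

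The deposited annotation puts the cells into clusters 0, 1 and 2, made from the genes of the same cells, so cluster values are a description. Cluster 2 held 87.3% to 93.5% of the cells of day 1 and 1.12% to 3.23% elsewhere, and thus day 1 and the other days mostly lie in different clusters. Values by cluster and by interferon genes are CPM within the same cells, without scaling by the trimmed mean of M values. They are thus not on the scale of the values above. H2-K1 stood at 494 ± 67 in cluster 0 and 354 ± 37 in cluster 1 of ATV:RSV, and at 720 ± 62 and 615 ± 64 at day 7. H2-D1 stood at 560 ± 123 and 437 ± 63 in these clusters of ATV:RSV and at 943 ± 86 and 896 ± 94 at day 7. Both were higher in cluster 0 than in cluster 1, and higher at day 7 within each. In the 211 to 383 day 1 cells a mouse left in cluster 0, H2-K1 stood at 606 ± 39 and H2-D1 at 599 ± 49.

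H2-Q6 and H2-Q7 together stood at 23 ± 14.3 CPM in cluster 0 of ATV:RSV, 18.3 ± 5.6 at day 1 and 77.0 ± 15.4 at day 7. In cluster 1 they stood at 8.66 ± 6.37, 10.5 ± 1.43 and 59.9 ± 13.6. In cluster 2 they stood at 118 ± 92.3 in ATV:RSV (76 to 165 cells a mouse), 53.4 ± 13.2 at day 1 (5607 to 6597 cells) and 178 ± 57.0 at day 7 (120 to 245 cells). At day 7 most of their UMIs came from cluster 0 (64.9% to 71.4%) and cluster 1 (21.7% to 25.1%). These clusters also held most of the day 7 cells, 56.2% to 59.3% and 38.5% to 40.6%.

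Cells with at least 3 of the 14 interferon genes, a list that holds none of the 10 transcripts, made up 61.6% to 66.0% of the cells at day 1, 11.6% to 13.9% at day 7, 4.64% to 6.52% at day 14 and 4.54% to 5.86% at day 28. Detection was scored in unthinned cells, and the day 1 cells held more UMIs. The part of depth in these shares was not tested. In the cells with at least 3 interferon genes H2-Q6 and H2-Q7 stood at 84.3 ± 64.6 CPM in ATV:RSV, 63.4 ± 14.5 at day 1 and 130 ± 27.2 at day 7. In the cells with fewer than 3 interferon genes they stood at 14.3 ± 6.80, 19.4 ± 1.92 and 63.1 ± 14.5, and then 24.2 ± 1.47 at day 14 and 19.6 ± 2.51 at day 28. Of the H2-Q6 and H2-Q7 UMIs of day 7, 65.8% to 69.3% came from cells with fewer than 3 interferon genes, against 8.53% to 13% at day 1. By the shares given above, such cells were also most of the cells at day 7 and the smaller part at day 1.

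In cells with fewer than 3 interferon genes H2-K1 stood at 432 ± 36 CPM in ATV:RSV, 616 ± 46 at day 1 and 653 ± 59 at day 7, and H2-D1 at 492 ± 67, 552 ± 40 and 869 ± 84. The ratio of H2-K1 to H2-D1 was thus above 1 at day 1 and below 1 at day 7 in these cells also. With the interferon-positive cells left out of the sums, the day 7 differences from ATV:RSV were 0.69 for H2-K1, 0.92 for H2-D1 and 0.50 for B2m, close to 0.71, 0.93 and 0.53 in all cells.

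**Figure D4:**
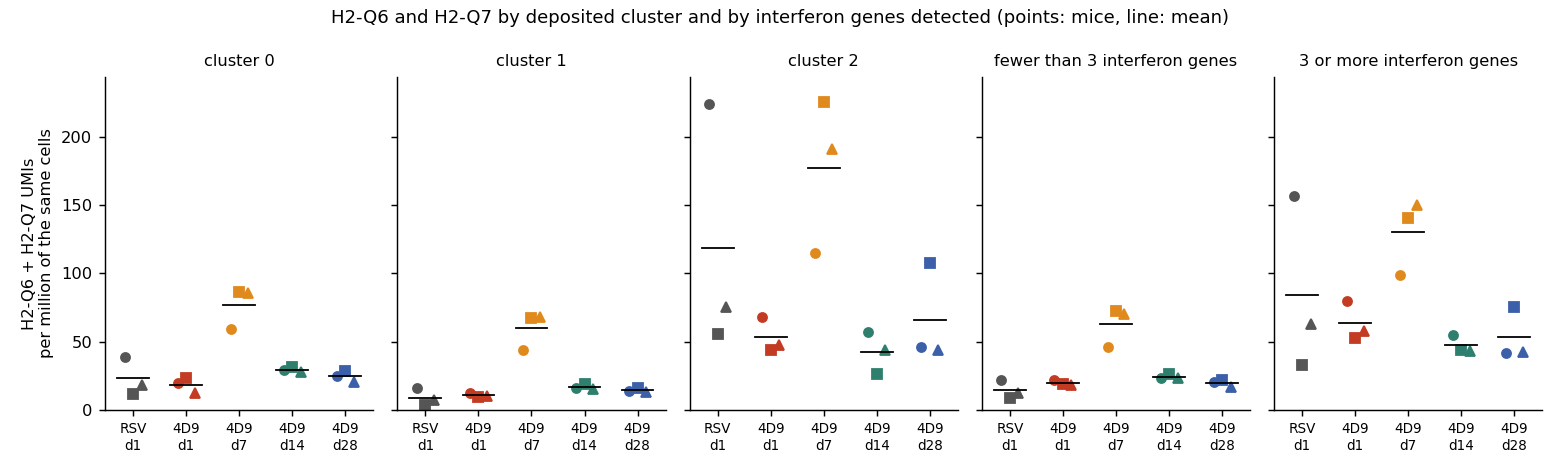
Summed H2-Q6 and H2-Q7 CPM within the same cells (not TMM-scaled), in deposited clusters 0, 1 and 2 and in cells with fewer than 3, or 3 or more, interferon genes, 1 point a mouse and a line at the mean. In clusters 0 and 1 and in the cells with fewer than 3 interferon genes all 3 day 7 mice lie above every mouse of the other groups, whereas the cells with 3 or more overlap.

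The rest of the pathway was taken from 6 lists of 53 genes in all, 52 of them in the count table, again chosen with earlier results known. The counts of each list at day 1 stand beside 34.7% higher and 34.6% lower over all genes, and those at day 7 beside 2.99% higher. Of 18 other class I and class I-like heavy chain genes, 12 were tested, and 7 were higher and 4 lower at day 1 (median 0.48), which became 5 and 5 with scaling to the library size alone. Among the 18, H2-Q5 and H2-T10 are annotated as polymorphic pseudogenes and H2-K2 as a transcribed pseudogene. H2-Q4, a Qa-family heavy chain, rose from 36.8 ± 5.75 to 60.4 ± 3.27 CPM (0.72 ± 0.10). H2-M3, which presents formylated peptides, rose from 45.2 ± 6.12 to 60.7 ± 8.58 CPM (0.42 ± 0.10). Hfe, which regulates iron uptake, fell by 0.51 (from 122 ± 2.66 to 85.7 ± 5.77 CPM) and Fcgrt, the neonatal Fc receptor, fell by 0.44 (from 90.9 ± 7.65 to 66.8 ± 1.28 CPM).

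At day 7, 4 of these 12 were higher and none lower (median 0.29), while edgeR called 5 higher and DESeq2 4 higher and 1 lower. The 4 were H2-Q4 (61.1 ± 6.98 CPM, 0.74 ± 0.10, adjusted p = 0.000375), H2-M3 (71.6 ± 6.11 CPM, 0.67 ± 0.11, adjusted p = 0.0011), H2-T22 (26.2 ± 1.92 CPM against 21 ± 1.51, 0.33 ± 0.08) and H2-Q5 (6.76 ± 1.32 CPM against 3.78 ± 0.914, 0.84 ± 0.18), all 4 members of the MHC region. With scaling to the library size alone 3 were higher and 2 lower. H2-Q7 shares 6 of its last 500 windows with H2-Q5, and the part of shared reads in the H2-Q5 value was not tested. H2-Q4 was the 1 gene of this list called lower from day 7 to day 14 (-0.49).

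Of the 8 genes of peptide loading and trimming outside the 10, 6 were higher and 1 lower at day 1 (median 0.60). Calr (calreticulin, a chaperone of newly made heavy chains) rose from 711 ± 17.9 to 2088 ± 125 CPM (1.55 ± 0.06) and Pdia3 (ERp57, which pairs with tapasin) from 356 ± 26.4 to 766 ± 116 CPM (1.10 ± 0.10). Canx rose by 0.58 and Bcap31 by 0.61. None was called at day 7 by limma-voom, edgeR or DESeq2 and none had an unadjusted p under 0.05 (median -0.03), where Calr stood at 706 ± 40.2 CPM and Pdia3 at 315 ± 24.3 CPM, and 6 of the 8 were called lower from day 1 to day 7, beside 33.9% of all genes. With scaling to the library size alone 6 were higher and 2 lower at day 1, and 2 of the 8 were lower at day 7.

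All 5 immunoproteasome genes, which encode catalytic subunits and the PA28 activator, were higher at day 1 (median 0.83). Psme2, of the PA28 activator, rose from 90.2 ± 4.49 to 312 ± 15.9 CPM (1.79 ± 0.05), Psme1 by 1.35, Psmb8 by 0.83 and Psmb10 by 0.76. At day 7 limma-voom and edgeR called 1 of the 5 and DESeq2 2, with 3 at an unadjusted p under 0.05. The 1 was Psme1 (205 ± 2.46 CPM against 179 ± 5.74, 0.19 ± 0.04, adjusted p = 0.00742), and none was called with scaling to the library size alone. The 3 constitutive subunits that the immunoproteasome replaces were also higher at day 1, Psmb6 by 1.20, Psmb5 by 1.10 and Psmb7 by 1.03, and none was called at day 7 by limma-voom, edgeR or DESeq2 (1 at an unadjusted p under 0.05), with values of -0.05, -0.11 and -0.12, whereas 2 of the 3 were called lower at day 7 with scaling to the library size alone.

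Among 13 genes of class I transcription 12 were tested, with 3 higher and 5 lower at day 1 (median -0.15), or 1 and 9 with scaling to the library size alone. Their day 1 differences ran from -0.76 to 1.68, and not every called gene is named here. Irf2 fell by 0.56 and Creb1 fell by 0.41, and Irf1 rose by 0.20 (adjusted p = 0.0292), but was -0.05 with scaling to the library size alone. At day 7, 1 of the 12 was called higher and none lower by each of limma-voom, edgeR and DESeq2 (median -0.03). With scaling to the library size alone 0 were higher and 3 lower at day 7. From day 7 to day 14, 1 was called lower.

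MHC class II, which presents peptides to CD4+ T cells, was higher for 5 of 6 genes at day 1 (median 0.96), or 4 higher and 1 lower with scaling to the library size alone, and 4 were called by edgeR and by DESeq2. Cd74, the invariant chain, rose from 35.9 ± 6.03 to 231 ± 27.1 CPM (2.69 ± 0.13), H2-Ab1 by 1.18, H2-Eb1 by 0.86 and H2-DMb1 by 0.51. At day 7 none of the 6 was called by limma-voom, edgeR or DESeq2, with 0 at an unadjusted p under 0.05 (median 0.05). Cd74 then stood at 42.6 ± 5.16 CPM (0.25, adjusted p = 0.428) and H2-Ab1 at 12.5 ± 0.857 CPM (0.31, adjusted p = 0.381). Of the 46 tested genes of the 6 lists none was called at day 14 or day 28 by the same 3 tools, with 3 and 1 at an unadjusted p under 0.05.

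**Figure D5:**
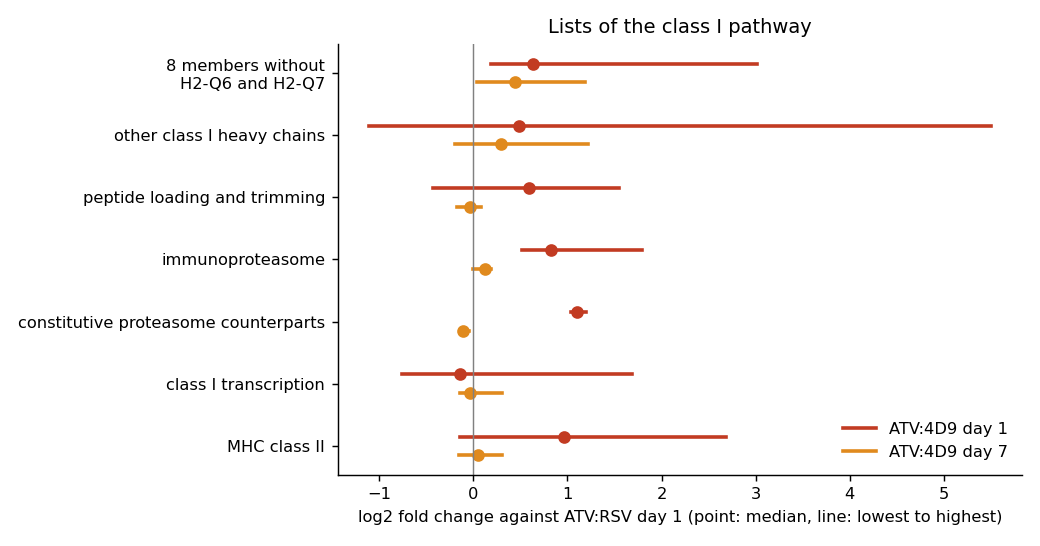
Median (point) and lowest to highest (line) log2 fold change against ATV:RSV day 1 of the tested genes of each list, and of 8 of the 10 transcripts in the top row, at ATV:4D9 day 1 and day 7. At day 1 the medians of peptide loading, both proteasome lists and MHC class II lie between 0.60 and 1.10, and at day 7 they lie between -0.11 and 0.12, while those of the 8 transcripts without H2-Q6 and H2-Q7 (0.44) and of the other heavy chains (0.29) are higher.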

How the data were processed

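Droplet 3′ single-cell libraries of CD45-bead enriched cells were analysed from the deposited table of UMI counts per gene and cell and the authors' cell annotation. Per the submitters' processing notes the authors used Cell Ranger 4.0.0 and mm10. The study's methods name later versions of Cell Ranger, and which one made these counts is unsure. The cell filters and doublet treatment are not given in the sources used here. The deposited counts are not normalized. The annotation also gives, per the authors, a mitochondrial percent per cell, at most 10, which was used as a description, and 3 clusters. No doublet caller was run. As an alternative, the deepest 5% of cells of every mouse were left out. A further animal was not analysed here.

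Cells were summed per mouse, and the sums were fitted with limma 3.58.1 (voom, group means over all 15 mice, R 4.3.3) after edgeR 4.0.16 filterByExpr (minimum count 10, minimum total 15) and TMM scaling. The threshold was an adjusted p of 0.05, Benjamini-Hochberg over all genes tested. P-values measure the spread between these mice. The depth was 32341960 to 70307384 UMIs per mouse, and Nlrc5 rests on as few as 28 UMIs in a mouse. Per-cell shares include free RNA and carry no test. The fit was tested on simulated counts in which few genes changed, at day 7 alone. That setting does not speak to the broad change at day 1. Figures used matplotlib 3.10.9.

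The 10 members and all gene lists were chosen with earlier results of these data known. All 10 members are named. Of each other list at most 4 genes are named, the called genes with the highest mean CPM, or tested genes where none was called. The labels state that each batch held all 5 groups, so the replicate number pairs mice by batch. Residuals of the 30 same-batch pairs correlated at 0.0539 on average (-0.225 to 0.259), those of 60 other pairs at -0.0267. Alternatives were the edgeR quasi-likelihood test, DESeq2 1.42.0, library size or DESeq2 size factors, other filters, the batch block, only the 6 mice compared, each mouse left out, cells with markers of other types, most UMIs, Mki67 or Top2a, or interferon genes left out, thinning, and H2-Q6 and H2-Q7 summed. Positions and shared windows came from GENCODE M21 (31506 symbols matched), promoters from RefSeq. Values of some genes are not reported here.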

Additional observations from a re-analysis of the deposited data

Results flagged for a closer look

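The levels in ATV:4D9 mice differed between sampling days for 6 of the tested transcripts from day 1 to day 7, by limma-voom tests of the difference itself. The log2 difference (day 7 minus day 1) was -0.35 for H2-K1, 0.34 for H2-D1, -0.89 for Tap1, -0.15 for Tap2, -0.25 for Tapbp and -1.82 for Nlrc5, where 33.0% of all genes were called higher and 33.9% lower. The call for Tap2 was lost with only the 6 mice compared (adjusted p = 0.0957), with scaling to the library size alone and on leaving out any of 4 mice. That for H2-D1 was lost without the day 1 mouse of batch 2 (0.083) and without the day 7 mouse of batch 3 (0.0752). From day 7 to day 14 it was -0.58 for H2-K1, -0.73 for H2-D1 and -0.43 for B2m, where 0.856% of all genes were called lower, and the call for B2m was lost on leaving out any of 4 mice (adjusted p of 0.0509 to 0.0777). H2-D1 is the 1 transcript of these that was higher at day 7 than at day 1. Each comparison between days uses ATV:4D9 mice of different days, with no control mice of the later days.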

How the results depend on the processing

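Over 29 alternatives, the counts of called transcripts moved by more than 1.5 times in 2 comparisons. From day 7 to day 14 the count called lower was 3 and became 5 with DESeq2 and with the replicate block. Leaving out 1 mouse at a time gave 2 to 4. From day 1 to day 7 the count called higher was 0 to 1 when 1 mouse was left out, and H2-D1 is that 1. The replicate block ended no call of the 10 transcripts. Beyond those 2 gains from day 7 to day 14 (Tap1 and Nlrc5) it added B2m from day 1 to day 7. With scaling to the library size alone the median of all genes shifted from -0.05 to -0.29 at day 1, from -0.00 to -0.10 at day 7 and from 0.02 to 0.17 between them, and 5 values turned, at day 1 H2-T23 (-0.011) and Tap2 (-0.0547) and at day 7 H2-T23 (-0.0131), Tap2 (-0.0561) and Tapbp (-0.0026). Called genes were then 3690 higher and 6959 lower at day 1 (4942 and 4930 with TMM), 317 and 882 at day 7 (426 and 142), 5908 and 3971 from day 1 to day 7 (4703 and 4835) and 15 and 71 from day 7 to day 14 (8 and 122). Leaving out 1 mouse turned H2-T23 at day 7 (-0.0008 to 0.142), Tap2 at day 7 (-0.0068 to 0.0769) and from day 7 to day 14 (-0.0296 to 0.0542), H2-Q6 at day 28 (-0.101 to 0.951) and H2-Q7 at day 28 (-0.212 to 0.759). The cause was not tested.

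Over all genes, 568 were called at day 7, and 871 with DESeq2, 1199 with library size, 1014 with the block, 331 without the control mouse of batch 2 and 334 without the day 7 mouse of batch 3. At day 14, 57 were called, and 132 with DESeq2, 19 with library size, 122 with the block and 0 with only the 6 mice. Without the control mice of batches 1, 2 and 3 there were 45, 42 and 16, and without the day 14 mice of these batches 0, 30 and 52. From day 7 to day 14, 130 were called, and 241 with DESeq2, 86 with library size, 72 without interferon-positive cells and 31 to 81 without single mice of either day. At day 28 there were 0, and 14 with DESeq2 and 2 with the block. From day 14 to day 28 there were 0, and 70 with DESeq2 (713 adjusted p-values), 19 with the block and 13 without the filter on low counts. Leaving out interferon-positive cells was not run for day 1, where they are most of the cells. Small counts limit Nlrc5, the spread between control mice limits H2-Q6 and H2-Q7, 3 mice a group limit every comparison, and those with ATV:RSV share the same control mice.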

Other observations

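Over the 12 mice outside ATV:4D9 day 1, log2 CPM of 10954 expressed genes was searched, without predicted (Gm or Rik) genes. Those that followed the sum of H2-K1 and H2-D1 most closely by Pearson r were H2-Q4 (r 0.966, Spearman rho 0.965), H2afj, Lgals3bp, H2-M3 and Sdc3 (r 0.958 to 0.963). The rho was lower for H2afj (0.797) and H2-M3 (0.860) than for Lgals3bp (0.902) and Sdc3 (0.944). For the sum of H2-Q6 and H2-Q7 the closest genes were Sdc3 (r 0.956, rho 0.958), H2-Q4, H2-M3, Clec2d and Ifi204 (r 0.942 to 0.949, rho 0.818 to 0.972). The 3 day 7 mice stand apart from the other 9 in both sums, and the mice share batches, so these values are descriptions. Without the day 7 mice of batches 2 and 3 the values of Pearson r were 0.898 to 0.938 and 0.878 to 0.983. Lgals3bp stood at 58.4 CPM in ATV:RSV, 284 at day 1 and 102 at day 7, and Ifi204, an interferon-inducible gene, at 8.82, 110 and 23.4 CPM.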
